A study of Homo sapiens with 12 samples.

Results

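PANC1 is a human pancreatic cancer line, and its cells were treated for 96 h with ICG-001 or with C646, each at 10 uM. Here the columns of these treatments were set directly against each other, without the solvent between them. The comparison covered every row of the expression table whose signal lay above background with at least 1 of the drugs, which was 17860 of 34687 rows. A value above 0 on the log2 scale is a higher signal with ICG-001, and a value below 0 is a higher signal with C646. Of these rows, 15016 were above background with both drugs, 1551 with ICG-001 only and 1293 with C646 only.

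The series measured RNA of PANC1 and of HCT116, a colon cancer line, on Illumina BeadChips, whose beads carry probes that bind labelled RNA and glow in proportion to it. Besides the drugs, cells received the solvent, 0.05% DMSO, and all were collected after 12 or 96 h, with fresh medium and drug added each day. PANC1 cells of the 96 h group were plated more sparsely than those of the 12 h group and were passaged during the treatment, so time, density and passage cannot be told apart. Each drug and time point was 1 column, the mean of 2 arrays for both columns compared here. By its title, the PANC1 ICG-001 column at 12 h averaged more arrays than the 2 of C646 at 12 h. Single arrays were not analysed here, so all differences below are sizes without error and without a test.

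The drugs act on different faces of the same co-activators. β-catenin (CTNNB1) docks on CBP (CREBBP), and ICG-001 takes away this docking but leaves that of p300 (EP300), whereas C646 is an enzyme inhibitor that stops CBP and p300 from transferring acetyl groups. Both co-activators acetylate histones at promoters and enhancers, and active WNT signaling sends β-catenin to the nucleus, where it recruits them through TCF/LEF factors. Among the programs treated below, cholesterol and fatty acid synthesis are run by the SREBP factors, which INSIG1 holds in the endoplasmic reticulum when sterols are plentiful. ATF4 is made when the translation factor eIF2α is phosphorylated under amino acid or endoplasmic reticulum stress, and it turns on genes that make, import and charge amino acids.

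Promoter sequence is shown for both of these programs, because they held the clearest groups of genes on either side of the comparison. The stretches come from RefSeq (GRCh38.p14) and are printed 5′ to 3′ on the strand of the gene, with the motif in capitals. The ATF4 element was searched as TGATGNAA on both strands in the 300 bases from 250 before to 50 after the start of a gene. It was in 2 of 14 promoters of genes listed as ATF4 regulators and 2 of 8 of amino acid synthesis genes in the table. Shown are the 5 genes of these lists and of the transporter list that held it and were at least 1.5-fold higher with ICG-001, while 11, 10 and 5 genes of the lists were that much higher. These were ATF3 (chr1:212565176-212565263, plus strand), CHAC1 (chr15:40953222-40953309, plus strand), GOT1 (chr10:99430775-99430862, minus strand), SLC3A2 (chr11:62881696-62881748, plus strand) and SLC7A1 (chr13:29595639-29595721, minus strand).
ATF3: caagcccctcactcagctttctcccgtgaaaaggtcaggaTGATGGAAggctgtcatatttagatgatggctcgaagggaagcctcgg
CHAC1: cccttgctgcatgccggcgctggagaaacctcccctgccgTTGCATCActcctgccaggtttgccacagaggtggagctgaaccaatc
GOT1: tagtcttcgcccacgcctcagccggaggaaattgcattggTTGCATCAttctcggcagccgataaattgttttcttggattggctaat
SLC3A2: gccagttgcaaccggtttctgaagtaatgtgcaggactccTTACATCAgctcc
SLC7A1: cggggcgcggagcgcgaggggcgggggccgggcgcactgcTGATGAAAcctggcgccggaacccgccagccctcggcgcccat

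The CCAAT box, which binds NF-Y, a factor that works beside SREBP at many sterol genes, was searched as CCAAT on both strands, so that ATTGG is the same box on the other strand. The 3 cholesterol synthesis genes of lowest ratio that had a promoter in the table and such a box in it were DHCR7 (chr11:71448422-71448502, minus strand), MSMO1 (chr4:165327469-165327654, plus strand) and EBP (chrX:48521602-48521797, plus strand). They held 2, 4 and 3 boxes, all in the stretches below.
DHCR7: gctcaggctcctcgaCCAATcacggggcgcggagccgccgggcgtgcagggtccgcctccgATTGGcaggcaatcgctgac
MSMO1: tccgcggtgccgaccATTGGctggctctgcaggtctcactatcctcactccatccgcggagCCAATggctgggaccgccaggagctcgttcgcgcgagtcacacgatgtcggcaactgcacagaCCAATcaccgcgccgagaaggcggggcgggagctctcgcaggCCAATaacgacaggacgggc
EBP: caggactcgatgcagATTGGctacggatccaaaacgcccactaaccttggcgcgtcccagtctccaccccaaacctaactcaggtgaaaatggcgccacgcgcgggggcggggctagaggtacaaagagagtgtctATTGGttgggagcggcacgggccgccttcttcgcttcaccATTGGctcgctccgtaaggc

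The columns of the 2 drugs were alike in distribution, with a median signal of 133.4 and 133.3 and a detection limit of 135.3 and 135.7. In the 6 PANC1 columns 44.4% to 48.0% of rows were above the limit. Of the 12 duct markers KRT7, KRT8, KRT18, KRT19, SOX9, EPCAM, MUC1 and CA2 were above the limit, while CFTR, ONECUT1 and SPP1 were among those that were not. Few markers of acinar cells (1 of 8), islet cells (1 of 8), fibroblasts (2 of 8), leukocytes (4 of 8) and intestinal epithelium (3 of 8) passed it, and those that did were dim except CD68, a lysosomal protein counted among the leukocyte markers, at 2747 with ICG-001 and 2042 with C646. The summed signal of the leukocyte markers was 3721 and 3066, and that of the fibroblast markers 1138 and 1295. Rows for ribosomal RNA differed widely between columns. RNA28SN5 was at 2841 with ICG-001, 1418 with C646 and 173 with DMSO at 96 h, and RNA18SN5 at 1257, 1702 and 732. The part of this in other differences was not tested.

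At 96 h, 1201 of the 17860 rows, or 6.72%, differed at least 1.5-fold between the drugs. With ICG-001, 587 of them (3.29%) were higher and 614 (3.44%) lower. At least 2-fold, 109 were higher and 137 lower, and at least 3-fold, 16 and 9. The median log2 ratio of all rows was 0.0025 and the quartiles were at -0.14 and 0.14. The 16827 rows under the limit with both drugs had an SD of 0.068, and none of them reached 1.5-fold, the widest being 0.31 apart on the log2 scale. Such rows were bounded by the limit in both columns, so their spread is that of background. It does not measure variation between cultures or arrays in rows above the limit. In the cells as a whole, a lower signal can be fewer cells that make a transcript or less of it in each, and these cannot be told apart.

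**Figure D1:**
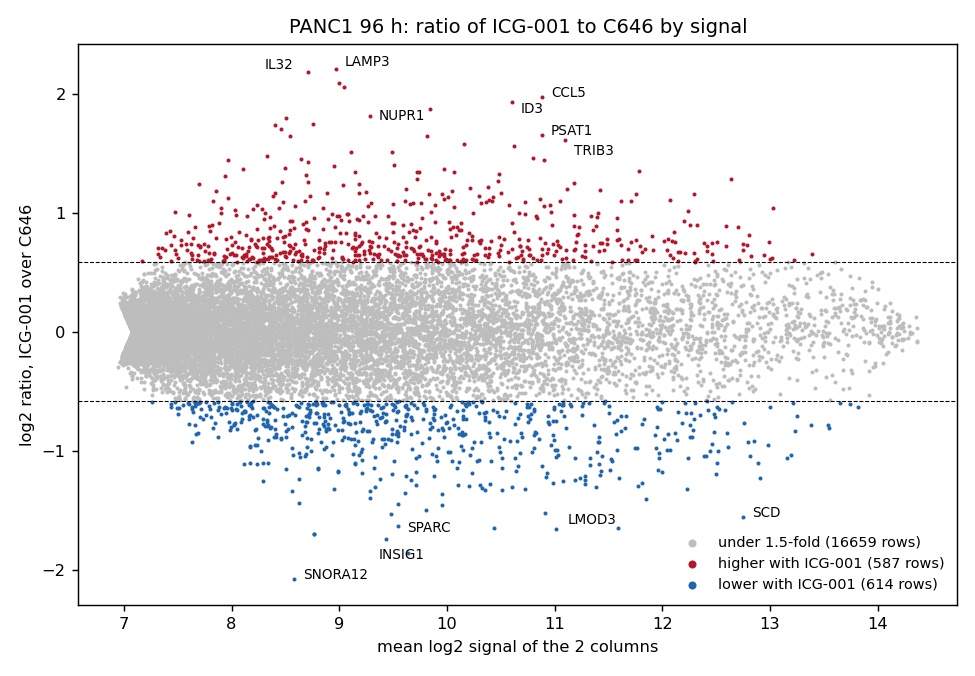
Mean log2 signal of the ICG-001 and C646 columns of PANC1 at 96 h (x axis) and log2 ratio of ICG-001 over C646 (y axis) for 17860 rows, 1 point a row, with dashed lines at 1.5-fold. Higher rows reached 2.20 (LAMP3) and lower rows -2.08 (SNORA12), and sterol genes such as INSIG1 and SCD lay at the lower edge over a wide range of signals.

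Most genes of cholesterol synthesis were lower with ICG-001, in the early and in the late steps. All 11 genes from acetyl-CoA to lanosterol had a ratio below 0, and 7 were at least 1.5-fold lower, with a median of -0.76. Of the 9 genes from lanosterol to cholesterol, 8 were at least 1.5-fold lower and the median was -1.001. Over all rows the share lower was 3.44% and the median 0.0025. The DMSO signal was nearer to that of C646 in all 7 of the early genes and in 7 of the 8 late genes that were 1.5-fold apart.

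HMGCS1, which condenses acetyl units at the start of the route, had a signal of 449 with ICG-001, 761 with C646 and 711 with DMSO, a 1.69-fold difference between the drugs. With C646 it thus stayed within a small distance of the solvent, and with ICG-001 it lay well under it. IDI1, the isomerase of the isoprene units, was at 339 with ICG-001, 765 with C646 and 773 with DMSO. ACAT2, the first enzyme of the route, gave 597, 1235 and 1303. FDFT1, which commits farnesyl units to sterols, gave 884, 1680.5 and 1619.9. In each of the last 3 the drug columns were about 2-fold apart, and C646 and DMSO were nearly the same. FDPS (log2 ratio -0.83) and SQLE (-0.66) were also at least 1.5-fold lower, while LSS (-0.57), MVD (-0.36), MVK (-0.36) and PMVK (-0.09) lay under that fold.

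In the late steps DHCR7, which makes cholesterol from its direct precursor and whose promoter is printed above, had a signal of 452 with ICG-001, 1232 with C646 and 1448 with DMSO. MSMO1, a demethylase printed above as well, was at 386, 1015 and 987. EBP, an isomerase, was lower by a log2 ratio of -1.18, SC5D by -0.86, NSDHL by -0.67 and CYP51A1 by -0.59, while TM7SF2 was at -0.43. HSD17B7 went another way, with 3933 with ICG-001, 7871 with C646 and 2888 with DMSO, so that C646 was the column apart. Its symbol is also an older name of a pseudogene, so its row may read either.

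The sensors and the uptake of sterols were split. INSIG1, the anchor of SREBP, had the lowest ratio of all protein coding genes, with 378 with ICG-001, 1267 with C646 and 1154 with DMSO (log2 ratio -1.75). SREBF1, which encodes SREBP of the fatty acid branch, was lower too (-0.64). Of the 11 genes above the limit 3 were lower and 8 stayed under 1.5-fold, with SREBF2 (0.05), its escort SCAP (-0.24), INSIG2 (0.06) and the lysosomal exporters NPC1 (0.17) and NPC2 (0.22), and the list had a median of -0.15. STARD4, a sterol carrier, was under the limit with both drugs. Of the 7 genes of sterol efflux and of the sterol receptor LXR, APOE, the lipoprotein that carries sterols away, was higher (4572 with ICG-001 and 2775 with C646), LPCAT3 (-0.86) and SCD were lower, and ABCA1, the main exporter, was at -0.39.

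Fatty acid synthesis was lower as well, with 10 of 14 genes at least 1.5-fold lower (3.44% over all rows) and none higher, and a median of -0.64. SCD, which puts the double bond into stearate, had a signal of 4010.1 with ICG-001, 11801 with C646 and 10713 with DMSO. FASN, the synthase itself, was at 3041, 5674 and 6749. These signals were among the brightest of the group, and the ICG-001 column was far under both others. The desaturases FADS1 (-0.98) and FADS2 (-0.77), the carboxylase ACACA (-0.91), the phosphatase LPIN1 (-0.89), the elongase ELOVL5 (-0.63) and the activating enzymes ACSL3 (-0.65) and ACSS2 (-0.62) were lower, and ACLY, which supplies acetyl-CoA, was just past the fold (-0.59). In ACACA, ACSL3 and LPIN1 the DMSO signal was nearer to ICG-001, for example 1219 with ICG-001, 2258 with C646 and 1516 with DMSO for LPIN1. ACACB, ELOVL1, ELOVL6 and FADS3 lay between -0.36 and 0.21.

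At 12 h the same genes did not stand apart in this way. The median ratio was -0.06 for the early and -0.12 for the late cholesterol genes and 0.02 for fatty acid synthesis, and none of the early genes was 1.5-fold apart, against 2.48% of all rows above the limit at 12 h. INSIG1 then read 750.1 with ICG-001, 737 with C646 and 957 with DMSO. With ICG-001 its signal was lower at 96 h than at 12 h, and with C646 it was higher. SCD followed the same course, from 6365 at 12 h to 4010.1 at 96 h with ICG-001 and from 5541 to 11801 with C646. For DHCR7 the order of the drugs turned, as it read 986 at 12 h with ICG-001 and 620.1 with C646. FADS1 (0.75 at 12 h), FADS2 (0.74) and the SCD pseudogene SCDP1 (0.67) were likewise at least 1.5-fold higher with ICG-001 at 12 h and at least 1.5-fold lower at 96 h.

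**Figure D2:**
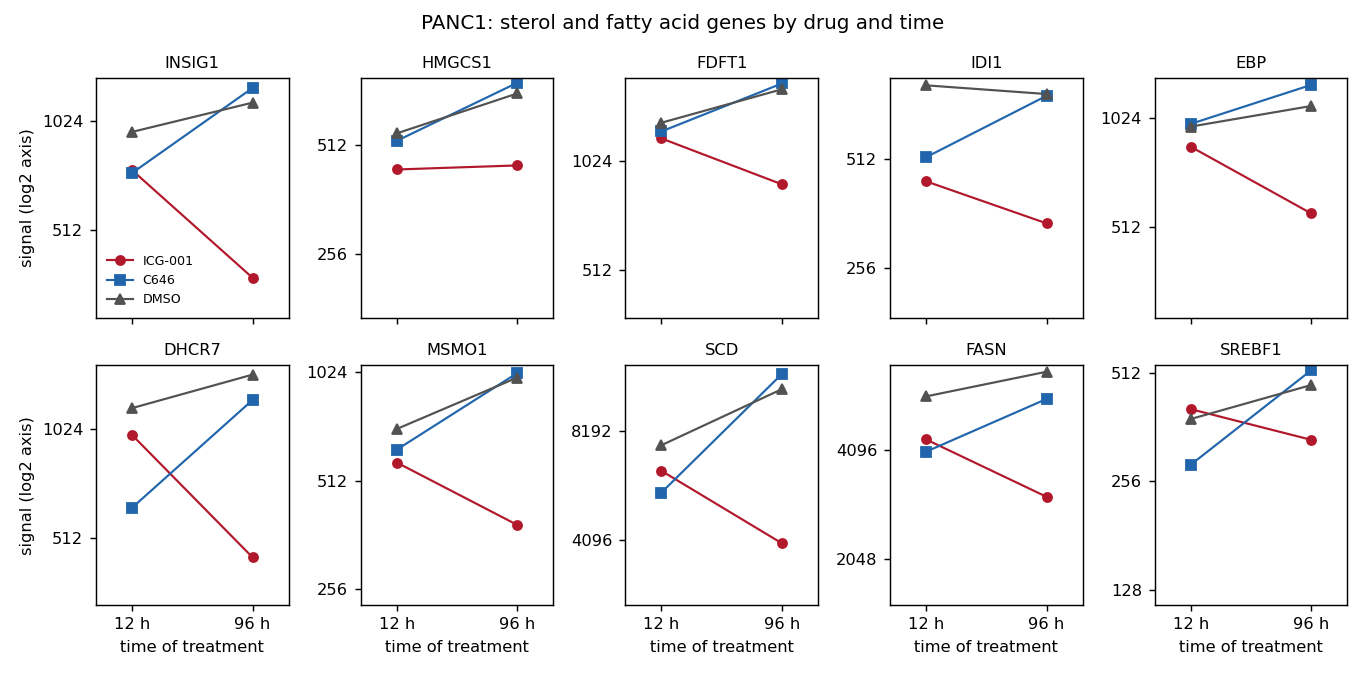
Signal (log2 axis) of 10 sterol and fatty acid genes in PANC1 at 12 and 96 h with ICG-001 (red circles), C646 (blue squares) and DMSO (grey triangles), 1 column a point and lines joining the times. At 96 h ICG-001 was the lowest column for each of the 10 genes and C646 lay near DMSO, while at 12 h DHCR7, SCD, FASN, SREBF1 and, by a small distance, INSIG1 were lower with C646 than with ICG-001.

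The reverse group was the ATF4 program. Of the 16 genes listed as ATF4 regulators, which include stress effectors such as CHAC1 and GDF15, 15 were above the limit. All 15 had a ratio above 0, with a median of 0.78. At least 1.5-fold higher with ICG-001 were 11 of them, against 3.29% of all rows. In all 11 the DMSO signal was nearer to C646. NIBAN1, a stress gene, was read by 2 rows, at 1056 and 1079 with ICG-001 against 249 and 259 with C646 and 245 and 239.7 with DMSO. Both rows were over 4-fold apart. NUPR1, a small stress protein of the nucleus, was at 1168 with ICG-001, 334 with C646 and 497 with DMSO. TRIB3, a pseudokinase that restrains ATF4, was at 3832, 1259 and 895. CEBPG, a partner of ATF4 on DNA, was at 3146, 1162 and 1475. For these genes the ICG-001 column lay well above both others.

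ATF4 itself differed less, at 3570.1 with ICG-001, 2768 with C646 and 2475 with DMSO (log2 ratio 0.37), a gene controlled largely in translation. PPP1R15A, which reverses the phosphorylation of eIF2α, was higher by 1.16, DDIT4, an inhibitor of mTORC1, by 1.01, DDIT3, known as CHOP, by 0.88 and CEBPB by 0.78. CHAC1, which degrades glutathione, and ATF3, both printed above with their ATF4 element, were dim and were higher by 0.69 and 0.66, and SESN2, a leucine sensor, by 0.61. GDF15, a secreted stress cytokine, had a ratio of 0.39 at 96 h but of 2.40 at 12 h, when its signal was 4346 with ICG-001 against 824 with C646. VLDLR was above the limit with ICG-001 only and was at least 1.27-fold higher. ATF5 (0.08) was near 0.

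Genes that make amino acids were higher along with these genes. Of 13 genes 10 were at least 1.5-fold higher (3.29% over all rows) and none lower (3.44%), with a median of 0.82. PSAT1, of the serine branch, had the highest ratio, at 3348 with ICG-001, 1064 with C646 and 988 with DMSO. PHGDH, the first enzyme of that branch, was at 9935, 4076 and 3339.5. PSPH, the last of the branch, was just under the fold, at 812, 544 and 535. The columns of C646 and DMSO lay close together for all 3 genes. A pseudogene of PSAT1, PSAT1P3, was at 1591 with ICG-001 and 509 with C646, and its probe may read PSAT1 RNA. GPT2 (1.40) and GOT1 (1.10), the transaminases of alanine and aspartate, CBS (1.19) and CTH (0.72) of the route to cysteine, PYCR1 (0.97) of proline synthesis, and the folate enzymes SHMT2 (0.82), MTHFD2 (0.73) and ALDH1L2 (0.61) were higher. ASNS, asparagine synthetase, fell short of the fold (0.56) at 96 h and was at 1.28 at 12 h. Of amino acid transporters 5 of 11 were higher and none lower, with a median of 0.51. SLC3A2, the heavy chain shared by several transporters, was at 1536 with ICG-001, 745 with C646 and 812 with DMSO, and SLC1A5, a glutamine carrier, was at 1301, 687 and 1007. The others were SLC7A1 (0.90), SLC1A4 (0.88) and SLC6A9 (0.72).

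Among cytosolic tRNA synthetases, which charge tRNA with amino acids, 2 of 16 were higher (3.29% over all rows) and none lower (3.44%). These were WARS1, at 1597 with ICG-001, 706 with C646 and 693 with DMSO, and NARS1, at 5784, 3642 and 3464. Their list had a median of 0.27. The mitochondrial enzymes had a median of -0.12, with SARS2 (-0.93) and EARS2 (-0.61) lower and none of 16 higher.

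At 12 h the ATF4 program already stood apart. The genes listed as ATF4 regulators had a median of 0.92 with 12 of 15 higher, and amino acid synthesis had 0.85 with 9 of 13 higher. Over all rows above the limit at 12 h, 1.56% were higher and 0.919% lower. TRIB3 was at 2427 with ICG-001, 539 with C646 and 366 with DMSO at 12 h. NUPR1 was at 859.6, 206 and 217. With DMSO as well, the signals of most of these genes were higher at 96 h than at 12 h, for example PHGDH at 1252 and 3339.5.

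**Figure D3:**
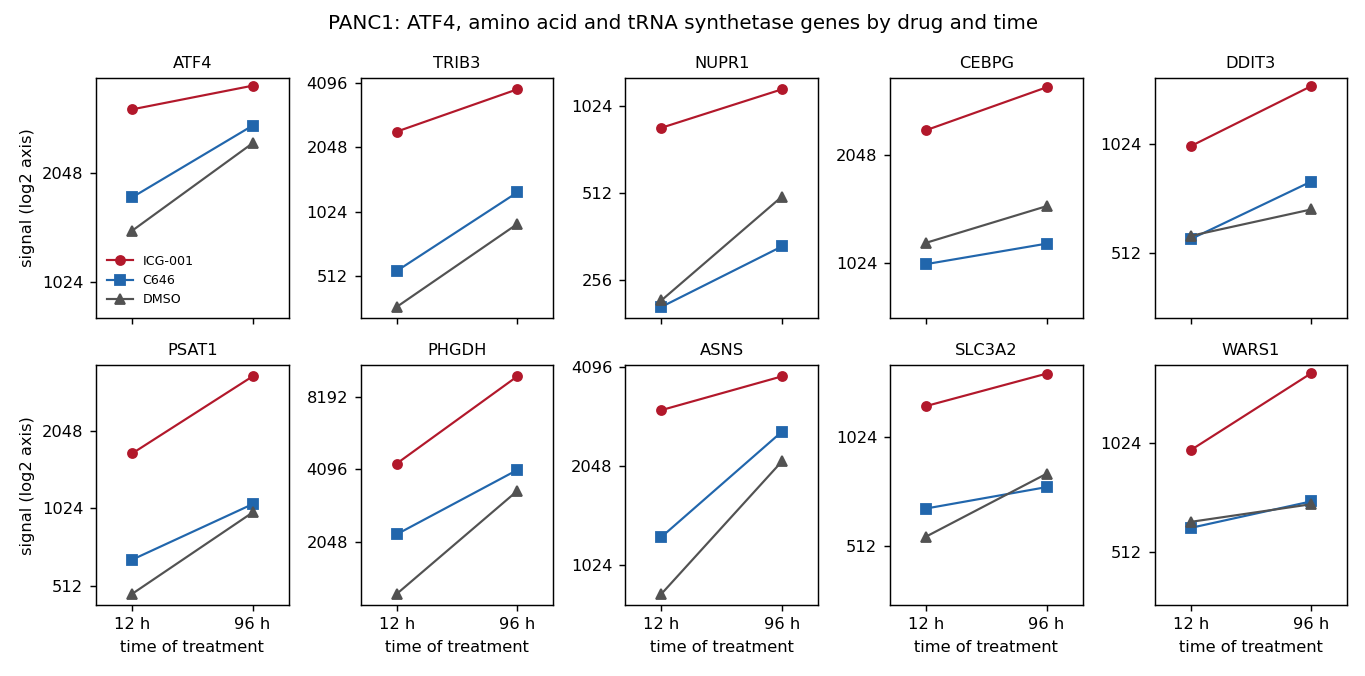
Signal (log2 axis) of 10 ATF4, amino acid and tRNA synthetase genes in PANC1 at 12 and 96 h with ICG-001 (red circles), C646 (blue squares) and DMSO (grey triangles), 1 column a point. ICG-001 was the highest column at both times for each of the 10 genes, and all 3 columns were higher at 96 h than at 12 h.

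Genes of the endoplasmic reticulum were split. Of 18 genes of the unfolded protein response 5 were lower (3.44% over all rows) and 3 higher (3.29%) with ICG-001, with a median of -0.20. The lower ones were the folding proteins: CANX, a lectin chaperone, was at 393 with ICG-001, 995 with C646 and 953 with DMSO, and PDIA4 (-0.91), HSP90B1 (-0.84), SDF2L1 (-0.72) and CALR (-0.71) were lower as well. The higher ones were the factors XBP1 (0.62) and ATF6 (0.70) and HERPUD1 (0.85), which serves the degradation of misfolded proteins. Heat shock chaperones held no gene 1.5-fold apart among 13, with a median of 0.14. Of 7 metallothioneins, MT1M (1.70), MT1E (0.76) and MT1G (0.68) were higher. Of 12 targets of NRF2, the factor of the response to oxidants, SRXN1 (1.11) and TXNRD1 (0.64) were higher and PGD (-0.59) was lower.

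**Figure D4:**
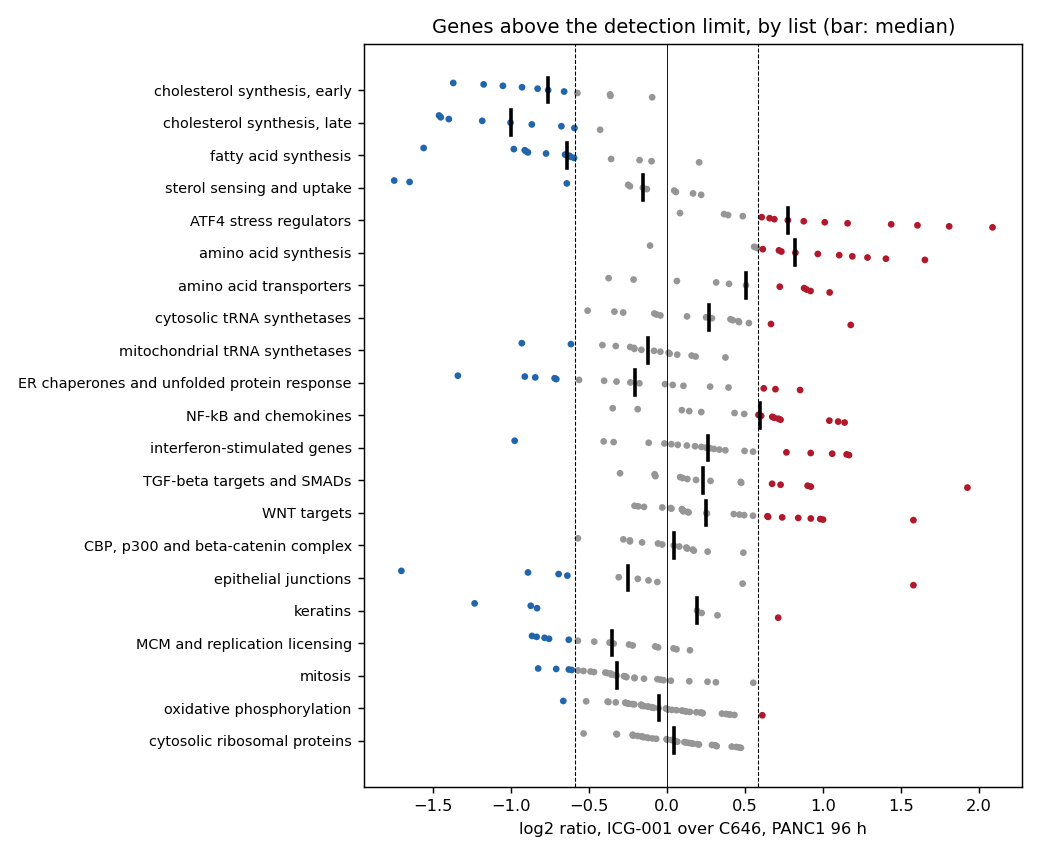
Log2 ratio of ICG-001 over C646 in PANC1 at 96 h for each gene above the detection limit in 21 lists, 1 point a gene (red, at least 1.5-fold higher; blue, at least 1.5-fold lower; grey, between), with black bars at the list median and dashed lines at 1.5-fold. Cholesterol and fatty acid synthesis lay to the left, ATF4 regulators and amino acid genes to the right, and ribosomal proteins and oxidative phosphorylation around 0.

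Many genes of the NF-kB list were higher with ICG-001. Of 16 NF-kB genes and chemokines 9 were at least 1.5-fold higher (3.29% over all rows) and none lower (3.44%), with a median of 0.60. In 6 of the 9 the DMSO signal was nearer to C646, and in 3 it was nearer to ICG-001. ICAM1, an adhesion receptor for leukocytes, was at 496 with ICG-001, 225 with C646 and 262 with DMSO. BIRC3, an inhibitor of apoptosis, was at 3098, 1448 and 1431. RELB, a subunit of NF-kB, was at 343, 167 and 259, so that C646 was the column farther from DMSO for RELB and ICG-001 for BIRC3 and ICAM1. The subunits NFKB1 (0.68) and NFKB2 (0.73), the inhibitors NFKBIA (0.60) and NFKBIE (0.69), the chemokine CCL2 (0.72) and SOD2 (0.59) were higher too. CXCL8 (0.50), TNFAIP3 (0.43), LIF (0.22), CCL20 (0.10) and CXCL1 (-0.35) stayed under the fold, and IL6 was under the limit with both drugs. The list had a median of 0.24 at 12 h, with 4 genes higher.

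The chemokine CCL5, which draws T cells and was in no list, had one of the widest ratios, with 3740.2 with ICG-001, 952 with C646 and 444 with DMSO. At 12 h its order was turned, with 464 with ICG-001, 615 with C646 and 399.7 with DMSO. IL32, a cytokine, was at 892, 197 and 201 at 96 h, and LAMP3, a lysosomal membrane protein, at 1074, 233 and 209. In both only the ICG-001 column stood apart, and at 12 h their ratios were 0.47 and 0.46.

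Of 22 interferon-stimulated genes 5 were higher (3.29% over all rows) and 1 lower (3.44%), with a median of 0.26. IRF1, a factor of the interferon response, was at 1363 with ICG-001, 613 with C646 and 422 with DMSO. PSMB8 (1.17) and PSMB9 (1.06), subunits of the immunoproteasome, ISG20 (0.92) and IFIT2 (0.77) were higher, and IFITM1, a membrane protein that blocks viral entry, was lower (483 with ICG-001, 948 with C646 and 1868 with DMSO). Class I antigen presentation was grouped after its values were seen. Of 11 such rows 6 were at least 1.5-fold higher (3.29% over all rows) and none lower. Their median was 0.60 at 96 h and 0.15 at 12 h. PSMB8 and PSMB9 were among the 6 and are counted with the interferon-stimulated genes too. Since the rows were grouped by their values, the count is not evidence for the group. HLA-B was at 1616 with ICG-001, 628 with C646 and 424 with DMSO, and at 611, 591 and 584 at 12 h. TAP1, which pumps peptides to class I molecules, was at 4601, 2156 and 1597 at 96 h. At 12 h the 3 columns of HLA-B lay together and at 96 h ICG-001 stood above the others. HLA-C (0.84) and HLA-F (0.60) were higher as well, while B2M was at 0.38. Probes for HLA genes can bind RNA of related genes, so these rows are less certain.

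ID proteins, which block basic helix-loop-helix factors and are targets of BMP signaling, differed between times. ID3 was at 3032 with ICG-001, 798 with C646 and 1874 with DMSO at 96 h, a 3.80-fold difference in which DMSO lay between the drugs. At 12 h it was at 1532, 1859 and 1682. ID1 was at 2102, 1317 and 1849 at 96 h, and ID2 at 568, 299.8 and 844. All 3 were thus higher with ICG-001 than with C646 at 96 h, and all 3 ratios were below 0 at 12 h (ID1 -0.38, ID2 -0.57 and ID3 -0.28). In HCT116 at 96 h the ratio was -0.92 for ID3 and -1.45 for ID2. Of 16 TGF-β targets and SMADs, 5 were higher (3.29% over all rows) and none lower (3.44%), with a median of 0.23. The ID genes and PMEPA1 (0.90) were among those higher. CCN2, a matrix protein and YAP target also known as CTGF, was at 5645 with ICG-001, 2212 with C646 and 3103 with DMSO.

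To see where the drugs differed on the pathway ICG-001 was made for, WNT targets and the complex itself were read. Of 27 WNT targets above the limit 8 were higher with ICG-001 (3.29% over all rows) and none lower (3.44%), with a median of 0.25. CLDN1, a tight junction claudin, was at 1972 with ICG-001, 659.6 with C646 and 899 with DMSO. SOX9, a progenitor and duct factor, was at 1167, 747 and 1376, and JUN at 1309, 835 and 1459.8. For SOX9, JUN and ID2 the DMSO signal was nearer to ICG-001 and for the other 5 it was nearer to C646. CCND2, a cyclin, was at 251 with ICG-001 and under the limit with C646, so it was at least 1.85-fold higher, and DLL1 (0.98), EDN1 (0.74) and IRX3 (0.84) were the others. CCND1 (0.26), MYC (0.11), BIRC5 (-0.21), CD44 (-0.18), MET (0.03), MMP7 (0.10) and S100A4 (-0.03) stayed under the fold. AXIN2, a feedback target, was dim, at 144 with ICG-001 and under the limit with C646. Of the 37 targets, 10 were under the limit with both drugs, LGR5, LEF1, TCF7, RNF43 and SP5 among them, so their ratio could not be measured. The antagonists DKK1 (-0.35), SFRP1 (-0.58), DKK3 (-0.10) and FRZB (-0.05) were all below 0 and short of the fold.

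None of the 15 genes of the CBP, p300 and β-catenin complex above the limit was 1.5-fold apart, and their median was 0.04. CREBBP was at 857 with ICG-001, 609.98 with C646 and 599 with DMSO, and EP300 at 293, 259.5 and 319. CTNNB1 was at 233, 213 and 224, and TCF7L2 at 172, 192 and 215. The widest ratio of the complex was that of KAT2A, another histone acetyltransferase, at 1192, 1768 and 1125 (-0.57), and it was at -0.68 at 12 h.

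Several epithelial genes were lower with ICG-001. Of 10 junction genes 4 were lower (3.44% over all rows) and 1, CLDN1, higher (3.29%), with a median of -0.25. SCNN1A, a subunit of the epithelial sodium channel, was at 242 with ICG-001, 787 with C646 and 629.6 with DMSO, and E-cadherin (CDH1) at 251, 464 and 353. CLDN7 (-0.69) and EPCAM, in both of its rows (-0.62 and -0.64), were lower too. Of 7 keratins, KRT19 was at 5006 with ICG-001, 11748 with C646 and 11273 with DMSO, KRT8 at 2892, 5290.5 and 6010.2, and KRT18 at 224, 398 and 323. These 3 are among the duct markers, and in all of them the ICG-001 column was the lowest. KRT7, a duct marker as well, had a ratio above 0 (0.32) and stayed under the fold. KRT80 was higher (0.71), and KRT81 (0.19) and KRT86 (0.22) stayed under the fold. Rows named for pseudogenes of KRT8 and KRT18, grouped after their values were seen, went with them: 9 of 11 were lower and none higher, with a median of -1.03, for example KRT18P28 at -1.34 and KRT8P9 at -1.10. Their probes may read KRT8 and KRT18 RNA, so these rows are not separate evidence. Of the 12 duct markers together, 4 were lower and 1 higher, and their summed signal was 12482 with ICG-001 and 21647 with C646, and the part of this in other differences was not tested. AGR2, a folding enzyme of mucous epithelium, was at 982, 2169 and 2995.

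Mesenchymal genes had no common side, with 2 of 14 lower, 1 higher and a median of -0.03. SPARC, a matrix glycoprotein, was at 425 with ICG-001, 1322 with C646 and 1041 with DMSO, and at 599, 631 and 584 at 12 h. COL5A1 was lower (-0.71) and TAGLN, an actin-binding protein of smooth muscle, higher, at 442, 172 and 144. For SPARC the drugs were alike at 12 h, and at 96 h C646 and DMSO were higher than at 12 h while ICG-001 was not.

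Genes of DNA replication leaned lower with ICG-001. Of 16 genes of the MCM helicase and licensing 5 were lower (3.44% over all rows) and none higher (3.29%), with a median of -0.35. Of 18 genes of DNA synthesis 3 were lower, with a median of -0.31. CDC45, which joins the helicase, was at 604 with ICG-001, 1099 with C646 and 886 with DMSO. MCM4 (-0.83), MCM5 (-0.78), MCM3 (-0.75), MCM6 (-0.63), UHRF1 (-0.84), TK1 (-0.81) and LIG1 (-0.69) were lower as well. Of 29 mitosis genes KIF20A (-0.82), CCNB1 (-0.71), TTK (-0.63) and CENPE (-0.61) were lower and none higher, with a median of -0.32. The CDK inhibitors held no gene 1.5-fold apart, and CDKN1A, known as p21, was at 928 with ICG-001, 1007 with C646 and 857 with DMSO at 96 h and at 651, 1006 and 551 at 12 h. Ribosomal proteins (0 of 36 apart, median 0.05) and oxidative phosphorylation (1 higher and 1 lower of 43, median -0.05) lay near 0. Their summed signals with ICG-001 were 369022 and 231189, so these bright lists are no reference level for the others.

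In signaling lists most genes stayed under the fold, and over all rows 3.29% were higher and 3.44% lower. Of 12 YAP and TEAD targets CCN2 and the kinase NUAK2 (0.66) were higher, of 10 AP-1 genes JUN and BATF3 (0.68), of 14 genes of ERK output the factor ETV5 (0.80), of 18 genes of PI3K and AKT GAB2 (0.72) and YWHAH (0.60), and of 6 EGF receptors and ligands HBEGF, a ligand of EGFR, at 803 with ICG-001, 342 with C646 and 474 with DMSO. None of these lists held a lower gene, and their medians lay between 0.09 and 0.22. Of 14 p53 targets SESN2 was higher and ZMAT3 lower (-0.69), and of 15 cell death genes PMAIP1 (0.97), which encodes NOXA, was higher and HRK was at least 1.64-fold higher, both triggers of apoptosis at the mitochondrion. IGFBP4 (0.61), of 10 IGF binding proteins, and MAP1LC3B (0.66), of 17 lysosome and autophagy genes, were the single genes past the fold in their lists.

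Glycolysis and hypoxia genes lay mostly under the fold. Of 18 glycolysis genes ALDOC, an aldolase, was lower (197 with ICG-001, 424 with C646 and 561 with DMSO), as was the phosphofructokinase PFKM (-0.91), and the median was -0.23. Of 13 hypoxia targets ANGPTL4 (-1.09), an inhibitor of lipoprotein lipase, and the glucose transporter SLC2A1 (-0.83) were lower and DDIT4 higher, with a median of 0.04. LIPG, an endothelial lipase in no list, was at 312 with ICG-001, 782 with C646 and 860.1 with DMSO. PCK2, the mitochondrial enzyme that feeds serine and glycerol synthesis, was at 904, 356 and 332 and lay on the side of the serine genes. Among 14 cyclins and CDKs CCNB1 was lower and CCND2 higher, and among 13 histones 1 was lower, H2AC6 (-0.72), and 1 higher.

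Further genes with the widest ratios belonged to no list above. BEX2, a small signaling protein of neurons, was at 1763 with ICG-001, 481 with C646 and 488 with DMSO. SRGN, a proteoglycan of secretory granules, was at 1215, 426 and 312. In both genes ICG-001 was the highest column. TPSG1, a tryptase (1.64), and RAB3IL1, an exchange factor for Rab proteins (1.51), were also among the 15 highest, and the next in order were CHST13 (1.47) and CCM2L (1.46). At the other end LMOD3, an actin nucleator of muscle, was at 1166 with ICG-001, 3682 with C646 and 863 with DMSO. ABRAXAS1, of a BRCA1 complex, was at 2265, 6016 and 2075, and D2HGDH, a dehydrogenase of hydroxyglutarate, at 489, 1250.2 and 690.2. Here C646 was the column apart and ICG-001 lay nearer to DMSO. NBPF20 (-1.53) and NBPF8 (-1.53), members of a gene family of near-identical copies whose probes may not tell them apart, behaved alike, with 1136, 3272 and 672 for NBPF20. Just short of the 15 lowest were SEMA3E (-1.33) and CCBE1 (-1.32).

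The rows lower with ICG-001 were cut into 2 groups at the log2 midpoint of the drugs, by which drug the DMSO signal was nearer to. The cut itself makes the groups, and their medians follow in part from it. In these rows the DMSO signal was above both drugs in 148, between them in 260 and below both in 206. In 314 of the 614 it was nearer to C646, with median signals of 505 with ICG-001, 895 with C646 and 914 with DMSO, and 252 of these rows (80.3%) were protein coding. In the other 300 it was nearer to ICG-001, with median signals of 651, 1240.5 and 620.4, and 184 of them (61.3%) were protein coding, 18 were lncRNA and 76 had no match to a RefSeq gene. The first group held most of the sterol genes, the second LMOD3, ABRAXAS1 and the NBPF rows. At 12 h their median ratios were -0.22 and -0.46. Of the 587 rows higher with ICG-001, DMSO was nearer to C646 in 490 and nearer to ICG-001 in 97, and it was below both drugs in 196, as for CCL5. These are positions of levels, since the same DMSO column stood beside both drugs.

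By type of transcript, 481 of 12181 protein coding rows (3.95%) were higher and 436 (3.58%) lower. Among 381 lncRNA rows 11 were higher and 22 (5.77%) lower. Among 150 snoRNA rows none was higher and 6 (4%) were lower, and none of 79 miRNA rows was apart. Over all rows 3.29% were higher and 3.44% lower, so the share of snoRNA rows lower was near that of all rows. SNORA12, a guide for pseudouridine, had the lowest ratio of all rows, with 187 with ICG-001, 789.97 with C646 and 594 with DMSO, and 309, 613 and 289 at 12 h. The next lowest rows that were not matched to a protein coding gene were PDIA3P1, a pseudogene of a folding enzyme (-1.86), and the unnamed row LOC727908 (-1.70). TYMSOS, the antisense neighbour of thymidylate synthase, was at 239.8 with ICG-001 and 652 with C646, while TYMS itself was at -0.02. The highest rows that were not matched to a protein coding gene were P8 (1.74), an older name of several genes with NUPR1 among them, and LOC649970 (1.74).

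Where 1 gene was read by several rows, the ratios mostly lay together. Across 283 pairs of rows of 281 genes the median absolute difference in log2 ratio was 0.153, and 254 pairs were less than 1.5-fold apart. In 40 pairs at least 1 row was 1.5-fold apart, and in 31 of these both rows had the same sign. In the 4 pairs with both rows past the fold the sign was shared in each. RBM14 was read apart by its rows, with a ratio of 0.34 in the row of that name and -1.29 in the row of an older name, and so was ERAP2 (0.56 and -0.81). These pairs compare probes on the same arrays, so they measure probes and not cultures.

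The same ratio was read in columns that shared no array with the 96 h pair. In PANC1 at 12 h 442 of 17849 rows were at least 1.5-fold apart, 278 higher and 164 lower with ICG-001. Across the 16632 rows above the limit at both times Pearson's r was 0.53 and Spearman's rho 0.46, a description across rows that share arrays and probes. Of 584 rows higher at 96 h and measured at 12 h, 513 had the same sign and 120 were at least 1.5-fold higher there too, which was 20.4% of the rows higher at 96 h and 43.2% of those higher at 12 h. Of 613 lower rows 542 had the same sign and 88 were 1.5-fold lower at both times, which was 14.3% and 53.7%. The rows shared between times held most of the ATF4 program, and those apart at 96 h without 12 h held most of the sterol genes. Past 1.5-fold in opposite ways were SLC44A2, a choline transporter, and an unnamed row among the higher rows, and CLDN7, DHCR7, FADS1, FADS2 and SCDP1 among the lower ones.

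**Figure D5:**
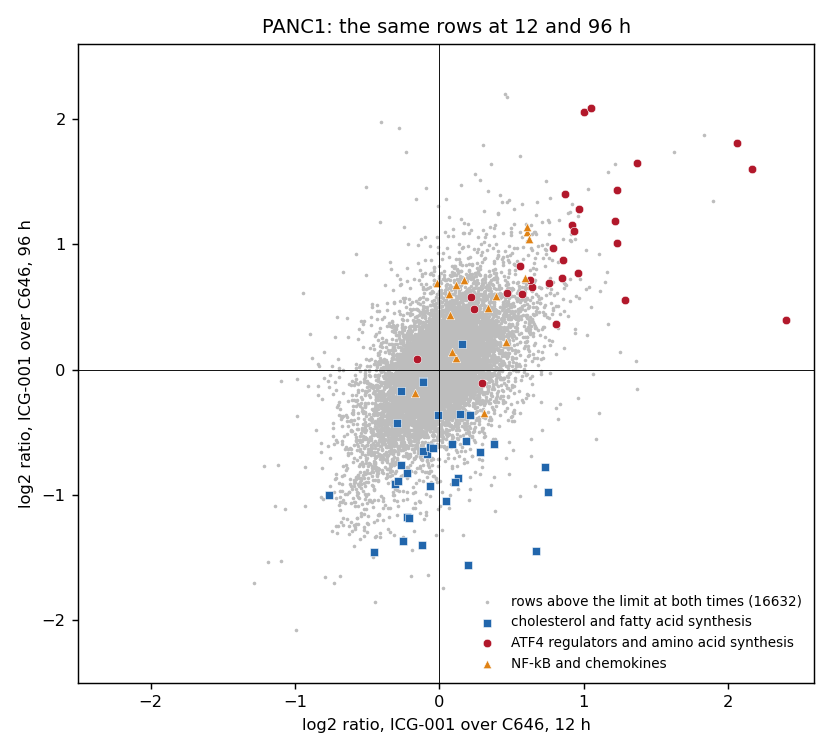
Log2 ratio of ICG-001 over C646 in PANC1 at 12 h (x axis) and 96 h (y axis) for 16632 rows above the limit at both times (grey), with genes of cholesterol and fatty acid synthesis (blue squares), ATF4 regulators and amino acid synthesis (red circles) and NF-kB and chemokines (orange triangles). The red group was high on both axes, while the blue group was low on the 96 h axis and spread around 0 at 12 h.

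In HCT116 at 96 h 1114 of 17098 rows (6.52%) were 1.5-fold apart, 553 (3.23%) higher and 561 (3.28%) lower with ICG-001. Across 15312 shared rows r was 0.41 and rho 0.38. Of 545 rows higher in PANC1 and measured in HCT116, 429 had the same sign and 156 were 1.5-fold higher in both lines (26.6% of the PANC1 rows and 28.2% of the HCT116 rows). Of 595 lower rows 491 had the same sign and 107 were 1.5-fold lower in both (17.4% and 19.1%). Early cholesterol genes had a median of -0.97 in HCT116 with 8 of 11 lower. Late cholesterol genes had -0.53 there with 3 of 9 lower, and fatty acid synthesis -0.36 with 3 of 14 lower. ATF4 regulators had 1.09 with 11 of 14 higher. INSIG1 was at -2.32 there and TRIB3 at 1.88. NF-kB genes had a median of 0.12 in HCT116, and interferon-stimulated genes -0.31 with 7 of 20 lower and none higher. IRX3, ID2, ID3, ISG20 and RGCC, an inhibitor of the cell cycle, were among 10 rows higher in PANC1 that were at least 1.5-fold lower in HCT116 (-0.96, -1.45, -0.92, -1.06 and -0.86), and CLDN7 was the 1 row lower in PANC1 and higher in HCT116. Whether the lines differed was not tested.

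The motifs of the printed promoters were counted over all genes with a RefSeq promoter in the table, which were 9796 of the protein coding genes above the limit, 387 of those higher and 365 of those lower. The ATF4 element TGATGNAA was in 4.91% of higher promoters (19), 0.822% of lower (3), 1.77% of all above the limit and 3.67% of all 27305 promoters. CCAAT was in 33.9% of higher, 42.2% of lower, 36.7% of those above the limit and 35.7% of all promoters, and in 5 of 7 early and 7 of 8 late cholesterol genes with a promoter in the table. The sterol element TCACNCCAC was in 1.55%, 1.10%, 1.06% and 1.15% in the same order, and none of these cholesterol promoters held those letters. The AP-1 site TGANTCA was in 2.84%, 3.56%, 4.36% and 7.76%. The median GC content was 69.0%, 65.0%, 65.3% and 58.3%, so higher promoters were richer in GC. The motifs were counted separately and a promoter could hold several of them. A match is a description of letters in this window.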

How the data were processed

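RNA of PANC1 and HCT116 cells was read on Illumina HumanHT-12 v4 BeadChips. Per the labels and methods, the authors exported signal intensity from GenomeStudio after quantile normalization, and replicate arrays were averaged before the table was deposited. The deposited intensity values are linear and carry no error, so no test was run, and the number of arrays limits their precision. Each line was read within itself only. Rows were kept where the signal with ICG-001 or C646 at 96 h was over the peak of the log2 signal distribution of its column by 2.33 SD, the SD being taken from values below the peak. A row was called apart at 1.5-fold. A fold against a column under the limit was set against that limit and written as "at least". Row names were matched to RefSeq genes of GRCh38.p14, 17755 by current symbol, 3305 by an older symbol and 2669 by LOC number, and 10814 were not matched. Named genes were the 15 highest and 15 lowest protein coding genes and the 3 highest and lowest other rows, with genes of 43 lists and 6 marker lists, and some of them are not reported here. Members and lists were chosen with earlier results of these data known. Alternatives changed the fold, the limit, background correction (limma 3.58.1 in R 4.3.3), centring, normalization and the treatment of rows of the same gene. Python 3.11.15 was used with pandas 2.3.3 for tables, numpy 2.4.6 and scipy 1.17.1 for values and matplotlib 3.10.9 for plots, and the scripts were tested on simulated data.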

Additional observations from a re-analysis of the deposited data

Results flagged for a closer look

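IRX3, a homeobox factor listed among WNT targets, had opposite ratios in the 2 lines at both times. In PANC1 the log2 ratio of ICG-001 over C646 was 0.21 at 12 h and 0.84 at 96 h, and in HCT116 it was -0.73 and -0.96. The means over both times were 1.37 apart between the lines (log2). The difference was not tested, since each drug, time and line was 1 column.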

How the results depend on the processing

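The number of rows apart followed the fold chosen: at 1.2-fold it was 4876 (2442 higher and 2434 lower with ICG-001), and at 2-fold 246 (109 and 137). With normexp background correction and quantile normalization over the PANC1 columns, 2796 rows were 1.5-fold apart (1372 higher and 1424 lower), the cause was not tested, and 1200 of the 1201 rows were apart the same way. The median log2 ratio under that setting was -0.90 for early cholesterol synthesis, 1.15 for ATF4 regulators and 1.18 for amino acid synthesis. With quantile normalization over all 12 columns the median of late cholesterol synthesis was -1.16, and the cause was not tested. All 36 named rows kept their sign under both of these settings, and the median of the mesenchymal list, close to 0, was the single list median to change sign, at 0.01 with no filter on dim rows. No replicate could be left out, because each group was 1 column. No paired analysis was possible because the numbered replicates of each drug and time were averaged into 1 column. Rows near the limit may have understated ratios, as the table holds background, and those under it in both columns have no ratio.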
